A study of Gallus gallus with 4 samples.

Results

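To describe what a single excitotoxic injury did to the neurons of the chick retina, the library from NMDA-damaged retina was compared with the library from saline-treated retina after Müller glia had been left out. A barcode was kept when it held at least 200 genes and at most 5% of its UMIs (unique molecular identifiers, 1 for each captured mRNA) came from 13 mitochondrially encoded genes. Glia were left out by gene counts: at least 10 UMIs of GLUL with at least 2 of RLBP1 for resting Müller glia, or at least 4 of FABP9 with at least 1 of TGFB2 for activated ones. These limits kept 9093 of 10905 saline barcodes and 8962 of 10897 NMDA barcodes, or 18055 of the 41286 barcodes in the series. No other measurement was used to choose them, and the 4 genes of the glial gate are not reported as results.

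The retinas were from wild-type chicks of the leghorn strain. Both groups received saline at P6, and then saline or NMDA in the eye at P10, and were collected 24 h later. In a second pair of libraries, clodronate+saline and clodronate+NMDA, liposomes carrying clodronate were given at P6 in place of saline. Clodronate liposomes are taken up by microglia and macrophages and kill them, so every eye of that pair differed in this respect from the first pair. Drug was injected into 1 eye and vehicle into the other, the retinas were dissociated with papain, and the number of animals behind a library is not given in the sources used here. There was 1 library per condition. Every interval below is therefore a 95% interval for counting error alone, no test was possible, and a difference between libraries cannot be told apart from a difference between conditions. The pair with clodronate shares no library with the first pair, and its values are given beside those of the first pair.

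NMDA is an agonist of a class of glutamate receptor whose channel passes calcium as well as sodium. When the agonist stays in excess the calcium load injures and kills neurons, a process called excitotoxicity. In the retina these receptors are best known on amacrine cells, the inhibitory interneurons of the inner retina, and on ganglion cells, whose axons form the optic nerve. Photoreceptors and horizontal cells lie farther from the inner retina, and bipolar cells carry the signal between the outer and inner layers.

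The non-glial barcodes held 15951147 UMIs in saline and 20791838 in NMDA, with medians of 1287 and 1486 UMIs per barcode. Barcodes with over 2500 genes, which can be large cells or several cells in 1 droplet, numbered 267 in saline and 730 in NMDA. Mitochondrial UMIs made up 1.32% to 1.49% of the 4 libraries, and 99 barcode sequences (1.09% of those in saline) occurred in both libraries of the main pair. Clusters were called after a cell type with "-like" when at least 3 of its markers were raised. Clusters named for neurons took in 97.03% of saline and 91.63% of NMDA barcodes, so the label of neurons held for most but not all of them. The rest included a Müller glia-like cluster (24 barcodes in saline and 172 in NMDA), an oligodendrocyte-like cluster (47 and 57), and unnamed clusters (199 and 521), of which the largest was led by hemoglobin genes (152 and 404). That cluster and the unnamed ones of 24 and 61 and of 19 and 45 barcodes had more raised markers of Müller glia (12, 15 and 13) than of any other class. Glial barcodes left in the pool were thus not limited to the Müller glia-like cluster.

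Because of those barcodes, the ratios below were taken within the clusters named for neurons unless the summed non-glial barcodes are mentioned. UMIs were summed per gene and given as CPM, the UMIs of a gene scaled to the total UMIs of the same barcodes, and a gene was tested when it had at least 50 UMIs over both sums, or at least 20 within a class. Genes are called higher or lower when the ratio of CPM was at least 2-fold. In the summed non-glial barcodes, 669 of 13441 tested genes (4.98%) were higher after NMDA and 351 (2.61%) were lower. In the clusters named for neurons, 454 of 13116 (3.46%) were higher and 325 (2.48%) were lower, and the median log2 ratio of all tested genes was 0.03. With clodronate, 403 of 13811 tested genes (2.92%) were higher and 683 (4.95%) lower in the non-glial barcodes, and 401 of 13597 (2.95%) and 626 (4.6%) in neuron clusters, where the median was -0.07. Of the genes that were higher in the non-glial barcodes, WNT6, WNT4, LRRC15 and IGLL1 had only 18.65%, 15.43%, 15.74% and 8.45% of their NMDA UMIs in neuron clusters. They are not described further as neuronal.

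The amacrine-like share of barcodes was smaller after NMDA. It was 25.12% in saline (24.23% to 26.02%, 2284 barcodes) and 18.12% in NMDA (17.33% to 18.93%, 1624 barcodes). In the pair with clodronate it was 35.65% and 25.63%. The ganglion-like share did not go the same way, with 4.11% in saline (3.71% to 4.54%) and 5.39% in NMDA (4.93% to 5.88%), and 4.87% and 14.27% with clodronate. The bipolar-like share was 56.12% and 54.33%, and 43.67% and 40.88% with clodronate. Horizontal-like barcodes were fewer after NMDA in the first pair (6.10% and 4.98%) but not in the pair with clodronate (4.48% and 6.73%), while the cone-like share was larger in both (4.68% and 7.82%, then 6.54% and 7.96%). Shares are relative and do not count cells in an eye: a smaller share of 1 class raises the others, and each class has its own chance of surviving dissociation. When the genes past 2-fold were also left out of the clustering, the amacrine-like shares were 24.80% and 18.32%.

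**Figure D1:**
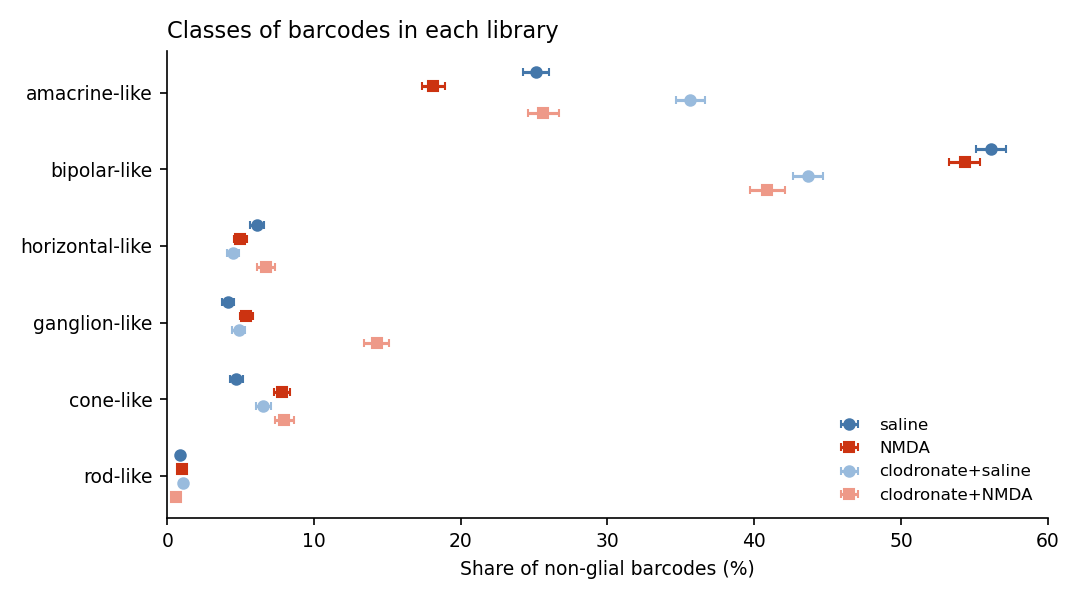
Share of non-glial barcodes (%, x axis) in each of 6 classes named from their markers, for the 4 libraries. Points are shares and bars exact 95% binomial intervals, which cover counting error only; the amacrine-like share was 25.12% in saline and 18.12% in NMDA, and 35.65% and 25.63% in the pair with clodronate.

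Within the amacrine-like class, 844 of 12534 tested genes (6.73%) were higher and 628 (5.01%) lower after NMDA. In the bipolar-like class these were 451 of 12656 (3.56%) and 345 (2.73%), in the ganglion-like class 402 of 11027 (3.65%) and 385 (3.49%), and in the horizontal-like class 214 of 7509 (2.85%) and 178 (2.37%). Cone-like barcodes gave 392 of 8265 (4.74%) and 315 (3.81%), and the few rod-like barcodes 185 of 2765 (6.69%) and 100 (3.62%). Small classes have fewer UMIs per gene, so more of their ratios pass 2-fold by counting error, and the numbers of genes tested differ.

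Neuropeptide and hormone genes stood at both ends of the ranking of genes in neuron clusters. Neuropeptides are short signalling molecules cut from a precursor, and in the retina each is made by a small number of amacrine or ganglion cells. Of 20 listed genes that could be tested in neuron clusters, 6 were higher and 5 lower, beside 3.46% and 2.48% of all genes. Their median log2 ratio was 0.04 beside 0.03 for all genes. With clodronate 4 were higher and 9 lower of 21, with a median of -0.87. Over all genes of that pair 2.95% were higher and 4.6% lower, with a median of -0.07.

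PRLL, a gene annotated as a prolactin-like hormone and not on that list, ranked first among the higher genes by the bound of its interval nearest 0. It stood at 6.63 CPM in saline, 1347 in NMDA, 9.27 in clodronate+saline and 1385 in clodronate+NMDA. The log2 ratio was 7.66 (7.39 to 7.96), and 7.22 with clodronate, so both NMDA libraries lay far above both saline libraries. RefSeq places PRLL on chromosome 1 at 30670357 to 30674227 (GRCg7b). Its UMIs were concentrated in few barcodes: 126 NMDA barcodes of neuron clusters held at least 20 UMIs of PRLL each and together 89.4% of them, and 123 of these were amacrine-like. In saline there was 1 such barcode, and with clodronate there were 1 and 128. Amacrine-like barcodes with any PRLL UMI made up 0.66% in saline and 31.5% in NMDA, at median depths of 2122.5 and 2356 UMIs. At an equal depth of 1000 UMIs these were 0.36% and 21.9%. Bipolar-like and cone-like barcodes with a PRLL UMI also reached 17.2% and 19.1% in NMDA. These classes are not known to make the hormone, so 1 UMI of PRLL in a barcode was not read as expression. Whether such UMIs came from RNA free in the suspension, from several cells in 1 droplet or from the cells themselves was not tested.

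CARTPT, the precursor of the peptide CART, and RLN3, the precursor of relaxin-3, were also higher in both NMDA libraries than in both saline libraries. CARTPT was 1.62 CPM in saline, 86.1 in NMDA, 2.01 in clodronate+saline and 43.2 in clodronate+NMDA, a log2 ratio of 5.70 (5.16 to 6.36) and 4.41 with clodronate. In amacrine-like barcodes it had 0 UMIs in saline and 1475 in NMDA, and 1 and 787 with clodronate. RLN3 was 0.325, 28.5, 0.638 and 29.3 CPM, a log2 ratio of 6.32 (5.22 to 8.09) and 5.47 with clodronate. Few barcodes carried these genes: 16 NMDA barcodes held 85.5% of the CARTPT UMIs and 3 held 81.0% of the RLN3 UMIs. For RLN3 the values thus rest on a handful of barcodes in each NMDA library, 3 in the first and 5 with clodronate.

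Among the lower genes, 3 precursors stood near the end of the ranking. They were NTS, the precursor of neurotensin, SST7, which RefSeq lists under the synonym of a second somatostatin precursor (PSS2), and PENK, the precursor of the enkephalins. NTS was 596 CPM in saline, 10.4 in NMDA, 267 in clodronate+saline and 12.7 in clodronate+NMDA. SST7 was 3016, 165, 1325 and 361 CPM. PENK was 1065, 95.4, 459.6 and 104 CPM. For each of the 3 genes both NMDA libraries lay below both saline libraries. The log2 ratios were -5.84 (-6.06 to -5.64) for NTS, -4.19 (-4.24 to -4.14) for SST7 and -3.48 (-3.55 to -3.41) for PENK, and -4.39, -1.88 and -2.14 with clodronate.

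The 3 precursors came largely from the same barcodes. The chick retina is known to hold a type of amacrine cell that contains enkephalin, neurotensin and somatostatin together. In saline, 41 of 9093 barcodes (0.451%) held at least 20 UMIs of each of NTS, SST7 and PENK, and 39 of them fell in a single amacrine-like cluster. These 41 barcodes held 95.6% of the NTS UMIs in neuron clusters, 89.2% of those of SST7 and 84.4% of those of PENK. In NMDA, 0 of 8962 barcodes did, which allows a share of up to 0.0335%. With clodronate it was 43 of 9445 (0.455%) after saline and 1 of 6593 (0.0152%) after NMDA. Fewer cells of this kind and less RNA of the 3 genes in each such cell cannot be told apart in these counts, and the threshold of 20 UMIs was chosen after the values had been seen. The amacrine-like cluster that held them had 857 barcodes in saline (9.42%) and 648 in NMDA (7.23%), and 1394 (14.8%) and 410 (6.22%) with clodronate. NHLH1, a transcription factor of developing neurons that was among its leading genes, was 21.1 CPM in saline, 1.15 in NMDA, 11.1 in clodronate+saline and 0.558 in clodronate+NMDA.

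The 3 precursors were also met as single UMIs in other classes. Bipolar-like barcodes with a UMI of SST7 made up 28.3% in saline and 3.29% in NMDA, and the SST7 log2 ratio was -3.62 in bipolar-like and -4.02 in cone-like barcodes, classes not known to make the peptide. A lower SST7 level in bipolar-like and cone-like barcodes is therefore not read as a change in their expression, and its source was not tested. Counts of ganglion-like barcodes did not follow: 12 in saline and 37 in NMDA held at least 20 UMIs of SST7. With clodronate they were 25 and 90. Such amacrine-like barcodes went from 40 to 3 and from 61 to 6. The ganglion-like class held 374 and 483 barcodes, and 460 and 941 with clodronate. Its median depths were 6070.5 and 9455 UMIs, and 7297 and 8612 with clodronate. The part of class size and depth in these counts was not tested.

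**Figure D2:**
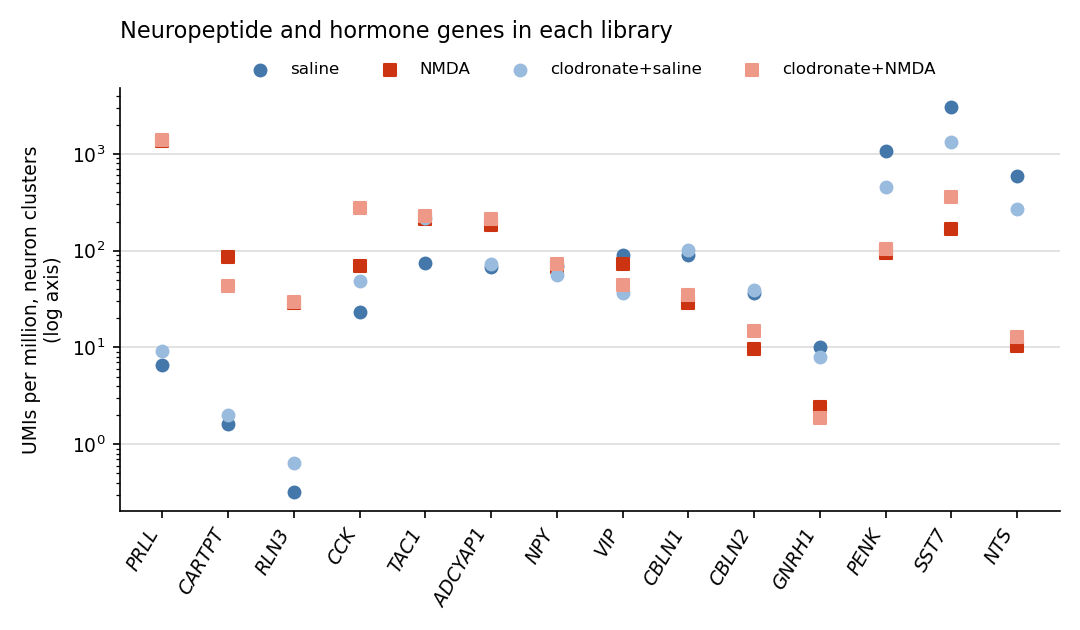
CPM in clusters named for neurons (y axis, log scale) of 14 neuropeptide and hormone genes in the 4 libraries, 1 point per library. PRLL, CARTPT and RLN3 stood higher in both NMDA libraries than in both saline libraries, PENK, SST7 and NTS lower, and NPY and VIP differed little in the first pair.

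Other peptide genes differed between classes. TAC1, the precursor of substance P, was 119.5 CPM in saline and 46.7 in NMDA in amacrine-like barcodes, and 277 and 85.4 with clodronate. In ganglion-like barcodes it was 181 and 771, and 488 and 461 with clodronate, so its higher level after NMDA (log2 ratio 2.09, 1.94 to 2.24) was not seen in the second pair. When barcodes with over 2500 genes were left out of the summed non-glial barcodes, the log2 ratio of TAC1 was -0.84 and that of CCK -0.05. Of the NMDA barcodes of neuron clusters with at least 20 UMIs, 39 of 40 for TAC1 and 17 of 18 for CCK were ganglion-like. That class had a median of 9455 UMIs per NMDA barcode, and the part of its depth in this change was not tested. CCK, the precursor of cholecystokinin, was higher in ganglion-like barcodes of both pairs, at 91.4 and 213 CPM, and 253 and 613 with clodronate. ADCYAP1, the precursor of the peptide PACAP, was 216 and 550.3 CPM in the same class, and 301 and 425 with clodronate. NPY and VIP, peptides of other amacrine cells, had log2 ratios of -0.03 and -0.32 in neuron clusters, and CBLN1, CBLN2 and GNRH1 were lower in both pairs, at -1.63, -1.92 and -2.05 and then -1.53, -1.42 and -2.08. CRH, the corticotropin-releasing hormone gene, was 4.16 CPM in saline and 14.2 in NMDA but 4.81 and 0.406 with clodronate. Its UMIs lay mostly in 4 NMDA barcodes.

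Amacrine markers and genes of inhibitory and monoamine transmission included more lower than higher genes. Of 11 tested amacrine markers 0 were higher and 5 lower in neuron clusters (median log2 ratio -0.96, and -0.96 with clodronate), where the amacrine-like share was smaller too. Within amacrine-like barcodes 2 of 11 were lower, with a median of -0.77. Markers from this list named the class, so their levels within it are not independent of the class. CALB2, the calcium-binding protein calretinin, was the clearest: 3737 CPM in saline and 1102 in NMDA among amacrine-like barcodes, and 3874 and 1563 with clodronate, log2 ratios of -1.76 (-1.81 to -1.72) and -1.31. In horizontal-like barcodes CALB2 was 4376 and 4322 CPM, a log2 ratio of -0.02 (-0.10 to 0.06). It was among the raised markers of a horizontal-like cluster too, so this value is not independent of that class either. GAD1, which makes GABA, was 1047 and 589 CPM in amacrine-like barcodes (-0.83, -0.90 to -0.76), short of 2-fold, and C1QL2, a secreted synaptic protein, was 86.3 and 32.2 CPM. Of 25 tested genes of GABA and glycine transmission 0 were higher and 3 lower in neuron clusters (median -0.36), where 2.48% of all genes were lower. Within amacrine-like barcodes 1 of 26 was higher and 5 lower (median -0.40), where 6.73% of all genes were higher and 5.01% lower. The 3 were GAD1, GLRA1, a glycine receptor subunit (-1.65, and -1.83 with clodronate), and GABRG1, a GABA receptor subunit (-1.50, and -0.75 with clodronate). Of 8 genes for synthesis and packaging of acetylcholine and monoamines 0 were higher and 4 lower, with a median of -0.92. The 4 were TH, SLC18A2, TPH1 and DDC, for dopamine and serotonin. With clodronate 1 of 8 was higher and 3 lower, with a median of -0.25. Over all genes of that pair 2.95% were higher and 4.6% lower in neuron clusters. TH, the rate-limiting enzyme of dopamine synthesis, had 100 UMIs in saline, 17 in NMDA, 16 in clodronate+saline and 238 in clodronate+NMDA. It rested on few barcodes, since 2 saline barcodes held 88 of the 100 and 1 clodronate+NMDA barcode held 225 of the 238.

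Among the receptors of glutamate, none of the 6 tested subunits of the NMDA receptor was higher and 1 was lower, with a median of -0.44 in both pairs. GRIN1, the subunit that all NMDA receptors share, was 342 CPM in saline, 204 in NMDA, 337 in clodronate+saline and 223 in clodronate+NMDA. Its log2 ratio was -0.75 (-0.81 to -0.69) in neuron clusters, -0.88 in amacrine-like, -1.01 in ganglion-like and -0.50 in bipolar-like barcodes. GRIN2A, a subunit that binds glutamate, had -0.50 in the first pair and -0.54 with clodronate. GRIN3B, the subunit that was lower, had 54 UMIs in saline and 7 in NMDA (-3.11, -4.57 to -2.05), and 48 and 14 with clodronate. Of 15 subunits of the AMPA and kainate receptors 0 were higher and 0 lower, with a median of -0.31 and -0.28 with clodronate. Among 6 metabotropic receptors GRM3 was lower (219 and 39 UMIs), but 14.8% of its NMDA UMIs in non-glial barcodes lay in neuron clusters. Of 37 genes of synaptic vesicle release 1 was higher and 2 lower (median -0.33, and -0.30 with clodronate). SYP, synaptophysin, 1 of the lower genes, was 2161 and 1095 CPM in amacrine-like barcodes, and 2124 and 1051 with clodronate. In neuron clusters 3.46% of all genes were higher and 2.48% lower. The few genes past 2-fold in these lists are therefore not read as results about them.

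Genes of injury and of the integrated stress response were higher mainly in amacrine-like barcodes. The integrated stress response slows translation and raises ATF4 and its targets, which serve amino acid supply and, when prolonged, cell death. In neuron clusters 5 of 23 of these genes were higher and 0 lower, with a median log2 ratio of 0.41, where 3.46% of all genes were higher. In amacrine-like barcodes 12 of 24 were higher, with a median of 1.04. All genes of that class had a median of 0.09, and 6.73% of them were higher. In bipolar-like barcodes 3 of 22 were higher, with a median of 0.22, where 3.56% of all genes were higher. Ganglion-like barcodes had 4 of 22 higher and 0 lower, with a median of 0.03, where 3.65% of all genes were higher. CHAC1, an enzyme that breaks down glutathione, was 3.36 CPM in saline and 56.6 in NMDA among amacrine-like barcodes, and 6.13 and 68.1 with clodronate, a log2 ratio of 4.04 (3.39 to 4.85). In bipolar-like barcodes CHAC1 had 76 and 71 UMIs (-0.27, -0.75 to 0.22). ASNS, asparagine synthetase, was 16.8 and 139 CPM in amacrine-like barcodes, and 24.6 and 146 with clodronate. PHGDH, the first enzyme of serine synthesis, was 1.49 and 89.6 CPM there, and 10.6 and 176 with clodronate. HSPA5, the chaperone of the endoplasmic reticulum, was 191 and 533 CPM in amacrine-like and 140.4 and 138 CPM in ganglion-like barcodes.

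Immediate early genes were higher in several classes. Of 25 immediate early genes 5 were higher and 0 lower in neuron clusters (median 0.61, and 0.33 with clodronate). In amacrine-like barcodes 12 of 25 were higher and 1 lower. In bipolar-like barcodes 6 of 26 were higher and 0 lower (median 0.40). Ganglion-like barcodes had 3 of 23 higher and 1 lower, and rod-like barcodes 3 of 8 and 1. Cone-like barcodes had 2 of 16 higher and horizontal-like barcodes 0 of 14, with 0 lower in both. Over all genes, 3.46% were higher in neuron clusters, 6.73% in amacrine-like, 3.56% in bipolar-like and 3.65% in ganglion-like barcodes. These shares were 6.69% in rod-like, 4.74% in cone-like and 2.85% in horizontal-like barcodes. Lower were 5.01% of all genes in amacrine-like, 3.49% in ganglion-like and 3.62% in rod-like barcodes. ATF3, a factor induced by injury in many neurons, was 12.3 CPM in saline and 97.5 in NMDA in amacrine-like barcodes, and 11.6 and 90.3 with clodronate. Its log2 ratio there was 2.98 (2.61 to 3.38), against 0.10 (-0.08 to 0.28) in bipolar-like and 0.66 (0.19 to 1.18) in ganglion-like barcodes. These intervals did not overlap between amacrine-like barcodes and either other class. GADD45B, a stress-induced regulator of growth arrest, was 125 and 711 CPM in amacrine-like barcodes, and 122 and 685 with clodronate. SOX11, a factor of immature and regrowing neurons, was 29.1 and 173 CPM there, and CREB5, a relative of CREB, 1.68 and 98.0, with 33.8 and 133 and then 2.64 and 140.1 in the pair with clodronate. Listed genes past 2-fold in neuron clusters, where ATF3 was not, included MYC, a growth regulator (log2 ratio 2.60, and 2.03 with clodronate). KLF2, a zinc finger factor (2.86), was a further one. FOS, the classic gene of this group, was 972 and 943 CPM in neuron clusters, a log2 ratio of -0.04.

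**Figure D3:**
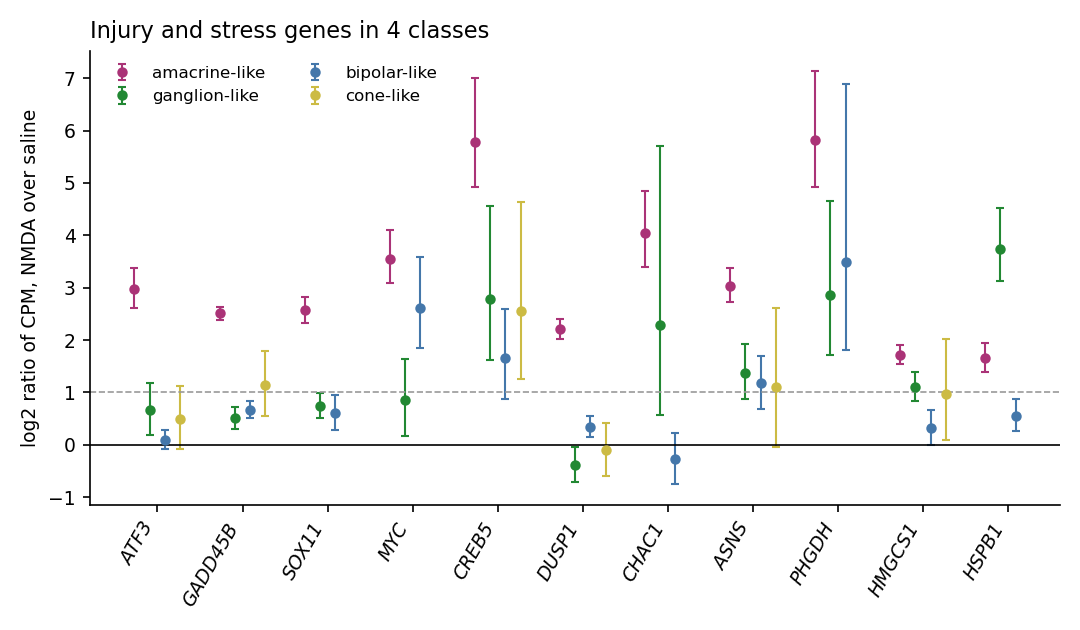
Log2 ratio of CPM, NMDA over saline (y axis), of 11 injury, stress and sterol genes in 4 classes of barcodes, with exact 95% intervals for counting error. The dashed line marks 2-fold; genes with under 20 UMIs or 0 UMIs on a side are left out, and most of the genes lay higher in amacrine-like than in bipolar-like barcodes, HSPB1 being highest in ganglion-like ones.

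Of 26 genes of apoptosis and p53 signalling, which govern programmed cell death, 2 were higher and 0 lower in neuron clusters, with a median of 0.20, where 3.46% of all genes were higher. In amacrine-like barcodes 4 of 27 were higher and 0 lower, with a median of 0.43, where 6.73% of all genes were higher. FAS, a death receptor, and BMF, a member of the BCL2 family that promotes death, were higher in amacrine-like barcodes with 16 and 64 and with 20 and 59 UMIs. EDA2R, a receptor of the tumor necrosis factor family, had 10 UMIs in saline and 361 in NMDA there. BCL2, which opposes death, was 47.7 and 100.1 CPM in ganglion-like barcodes, a log2 ratio of 1.06 (0.77 to 1.38), but 55.1 and 67.9 with clodronate.

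Genes of axon injury and regrowth and of the response to oxidation were also counted, in neuron clusters where 3.46% of all genes were higher and 2.48% lower. With clodronate these shares were 2.95% and 4.6%. Of 29 axon injury genes 6 were higher and 1 lower in neuron clusters, with a median of 0.12, and with clodronate 7 were higher and 2 lower, with a median of 0.49. Beside SOX11 and GADD45B, the higher ones included SOX4, a relative of SOX11 (1.10, and 0.70 with clodronate), and DPYSL3, a protein of growing axons (1.08 and 1.31). The others were UCHL1, an abundant neuronal ubiquitin hydrolase (1.01 and 1.61), and SPP1, the secreted protein osteopontin (2.67 and -0.60). SPP1 was also a leading gene of the unnamed cluster led by hemoglobin genes, so it is not read as neuronal. Of 28 genes of oxidative stress and metal binding 3 were higher and 1 lower, with a median of 0.33. TXN, thioredoxin, was 614 CPM in saline, 1241 in NMDA, 663 in clodronate+saline and 1156 in clodronate+NMDA, so both NMDA libraries were above both saline libraries. Among 26 calcium buffers and sensors 0 were higher and 2 lower (median -0.11): CALB2 and CAMK2A, a calcium-activated kinase of synapses (15.4 and 6.64 CPM, and 17.6 and 8.78 with clodronate).

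Ganglion-like barcodes differed from saline in another set of genes. HSPB1, a small heat shock protein, was 8.31 CPM in saline, 114 in NMDA, 33.7 in clodronate+saline and 102 in clodronate+NMDA, a log2 ratio of 3.74 (3.12 to 4.52). It was the single gene of 29 heat shock chaperones that passed 2-fold in neuron clusters, where the list's median was 0.23. Over all genes of neuron clusters 3.46% were higher, so that count is not read as a result about chaperones. In ganglion-like barcodes 2 of 28 chaperones were higher (median 0.36), where 3.65% of all genes were higher. LDHA, lactate dehydrogenase, was 3860 CPM in saline and 14890 in NMDA, a log2 ratio of 1.95 (1.92 to 1.98), and 7122 and 12176 with clodronate. In amacrine-like barcodes LDHA had a log2 ratio of 0.17, and -0.98 with clodronate. NEFM, a neurofilament subunit, was lower, with 913 and 398 CPM, and 562 and 334 with clodronate, and CHRNA2, a subunit of nicotinic acetylcholine receptors, had 93 and 16 UMIs. NEFM is a marker of the class. Of its 12 tested markers 0 were higher and 2 lower here (median -0.35), where 3.49% of all genes were lower. POU4F2, a transcription factor of ganglion cells, was 559 and 409 CPM and RBPMS2, an RNA-binding protein, 625 and 740. Both were leading genes of the cluster and among the markers that named it, so their levels are not independent of the class. Median UMIs per ganglion-like barcode were 6070.5 in saline and 9455 in NMDA, so the barcodes of this class were not of the same depth. The part of that in these ratios was not tested. The class was a single cluster, and the largest share of its barcodes came from clodronate+NMDA (941), beside 374 from saline and 483 from NMDA.

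Some genes of cholesterol synthesis were higher and none was lower. Of 17 tested genes 6 were higher and 0 lower in neuron clusters, with a median of 0.72, and with clodronate 15 of 17 were higher, with a median of 1.71. In amacrine-like barcodes 12 of 17 were higher (median 1.30), and in bipolar-like barcodes 2 of 17 (median 0.32). Over all genes, 3.46% were higher in neuron clusters and 2.95% there with clodronate, 6.73% in amacrine-like and 3.56% in bipolar-like barcodes. HMGCS1, an early enzyme of the pathway, was 66.4 CPM in saline, 219 in NMDA, 20.9 in clodronate+saline and 233 in clodronate+NMDA in amacrine-like barcodes. For HMGCS1 both NMDA libraries were alike and the saline libraries were not. Its larger ratio with clodronate (3.48, against 1.72) goes with its lower level in clodronate+saline. The list as a whole differed: its summed level in neuron clusters was 777, 1350, 646 and 2093 CPM in the same order, highest in clodronate+NMDA. The 6 that passed 2-fold in the first pair, HMGCS1, SQLE, CYP51A1, MSMO1, NSDHL and INSIG1, had log2 ratios from 1.02 to 1.54 there and from 2.02 to 3.52 with clodronate. NSDHL, a later enzyme, was 4.68, 13.7, 2.35 and 27.2 CPM in neuron clusters.

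Interferon-stimulated genes, by contrast, did not keep their direction. These genes serve defence against viruses and the display of antigens, and of 29 tested 19 were higher and 0 lower in neuron clusters, with a median of 1.48. With clodronate 2 of 31 were higher and 10 lower, with a median of -0.53. Over all genes of neuron clusters, 3.46% were higher in the first pair, and 2.95% were higher and 4.6% lower with clodronate. OASL, an antiviral gene, was 0.975 CPM in saline, 23.0 in NMDA, 212 in clodronate+saline and 66.0 in clodronate+NMDA. IFIT5, another, had 18, 253, 1003 and 591 UMIs in the same order. An OASL UMI was met in 101 of 8212 NMDA barcodes of neuron clusters, and 4 of them held 41.8% of these UMIs. B2M, the light chain of MHC class I, was 32.2, 69.2, 143 and 58.6 CPM. The saline library was thus the lowest of the 4 for these genes and clodronate+saline the highest, and the summed level of the list was 308, 610, 1040 and 571 CPM. IRF1, a factor that drives such genes, was 1.88, 17.9, 14.4 and 12.2 CPM. Bipolar-like barcodes had a median of 2.01 over 27 of these genes, and amacrine-like barcodes 1.30 over 28.

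In horizontal-like and cone-like barcodes the medians of the integrated stress and immediate early lists lay below those in amacrine-like barcodes. The integrated stress list had medians of 0.07 in horizontal-like and 0.35 in cone-like barcodes, beside 0.22 in bipolar-like and 0.03 in ganglion-like ones, and the immediate early list -0.01 and 0.13. In the few rod-like barcodes (81 in saline and 89 in NMDA) these medians were 0.54 over 11 tested genes and 0.83 over 8. MT4, a metallothionein, was higher in all 6 classes of the first pair, with log2 ratios from 1.14 in ganglion-like to 2.37 in bipolar-like barcodes. With clodronate MT4 ranged from -2.31 in cone-like to 0.86 in horizontal-like barcodes. Ribosomal protein genes (66 tested, 0 higher and 0 lower, median 0.06), the proteasome (32, 0 and 0, median 0.28) and nuclear genes of mitochondrial respiration (51, 0 and 0, median 0.12) stayed under 2-fold in neuron clusters. Over all genes there 3.46% were higher and 2.48% lower. Ratios above 1 were found for 50 of the 66, 31 of the 32 and 44 of the 51 genes.

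**Figure D4:**
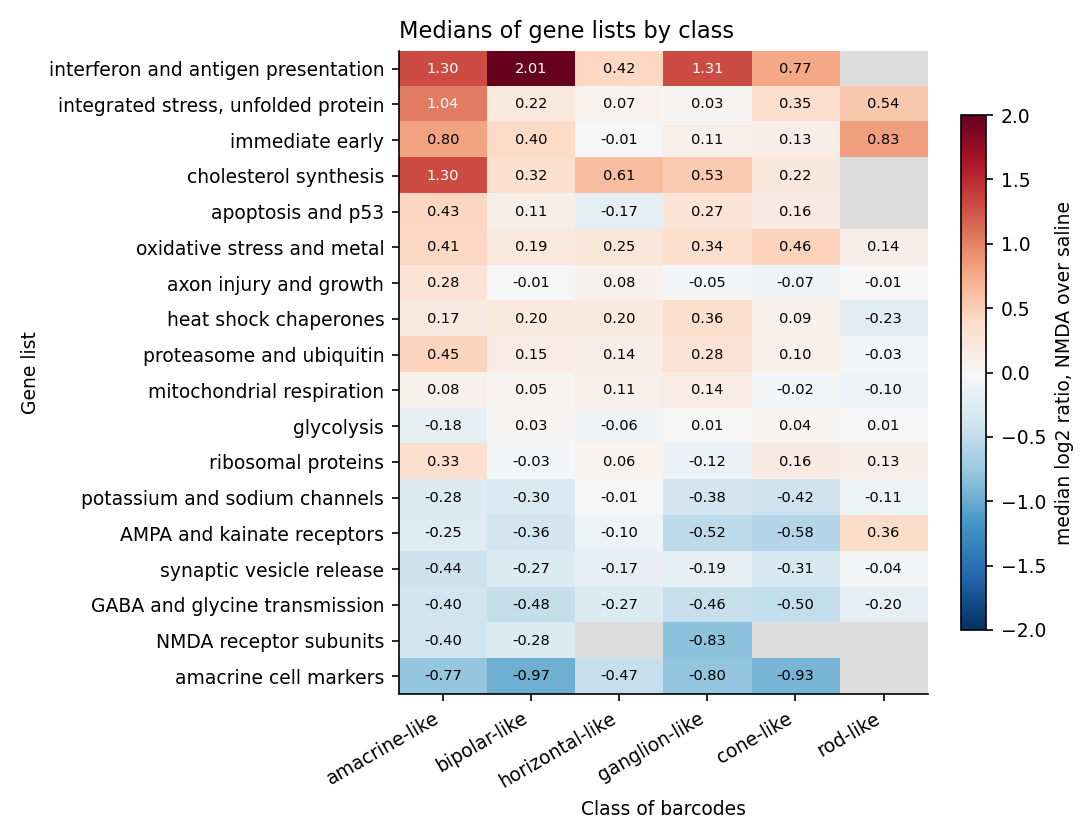
Median log2 ratio, NMDA over saline, of the tested members of 18 gene lists (rows) in 6 classes of barcodes (columns), printed in each cell and colored from -2 (blue) to 2 (red). Grey cells had fewer than 5 members tested; the integrated stress list reached 1.04 in amacrine-like barcodes and 0.22 in bipolar-like ones.

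Markers of other cells were measured beside these results. Over all genes of neuron clusters, 3.46% were higher and 2.48% lower. In neuron clusters, the summed level of the microglial markers was 15.9 CPM in saline and 17.2 in NMDA, and 2 of the 12 listed had enough UMIs to be tested. The erythrocyte markers went from 6.95 to 770 CPM, and all 3 tested were higher, but 15 barcodes held 91.0% of the HBA1 UMIs. Without the 4 genes of the gate, the 11 Müller glial markers summed to 1085 CPM in saline and 1006 in NMDA, and 4 were higher and 4 lower, among them CA2 (644 and 238 CPM) and VIM (204 and 454 CPM). The part of these cells in the ratios of neurons was not tested. S100A6, with 30.5% of its NMDA UMIs in neuron clusters, and FABP7, with a log2 ratio of 1.81, are therefore not read as neuronal.

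Across the genes of neuron clusters, the second pair went largely the same way as the first. Of 410 genes higher in the first pair and tested in both, 307 (74.9%) had a ratio above 1 with clodronate, 153 were again at least 2-fold higher and 18 were at least 2-fold lower. Of 302 lower genes, 271 (89.7%) had a ratio below 1, 143 were again at least 2-fold lower and 4 at least 2-fold higher. Over all genes tested in both, 43.1% had a ratio above 1 and 56.9% below 1 in the pair with clodronate. GBX2, a homeobox factor, was an example of the lower genes that differed in size, at 15.9, 1.48, 18.2 and 10.9 CPM. RASL10A, a Ras-like protein, was 98.9, 11.8, 113 and 26.4 CPM, and CHODL, a membrane lectin, 16.1, 2.30, 9.61 and 2.03 CPM. GLRX, a glutaredoxin that reduces oxidized proteins, was 1.56, 51.6, 2.45 and 31.4 CPM, a log2 ratio of 5.02 (4.47 to 5.70) and of 3.67 with clodronate.

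**Figure D5:**
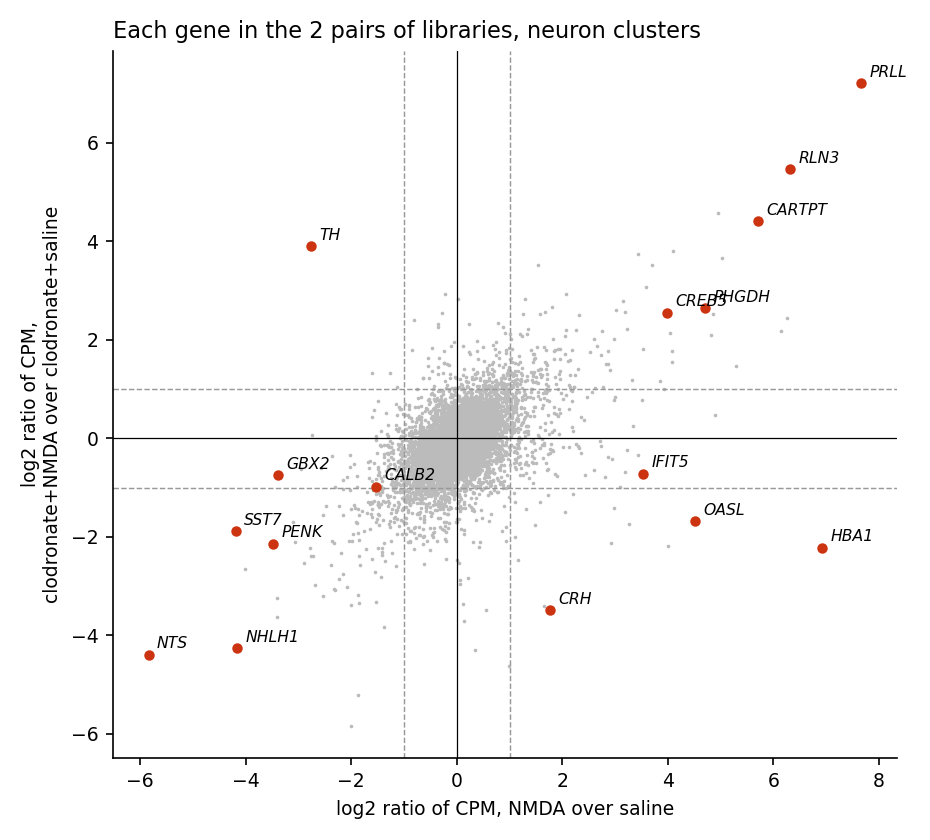
Log2 ratio of CPM of each gene tested in both pairs of libraries in clusters named for neurons, NMDA over saline (x axis) and clodronate+NMDA over clodronate+saline (y axis). Dashed lines mark 2-fold; PRLL, RLN3 and CARTPT lie high in both, NTS, NHLH1, SST7 and PENK low in both, and TH, OASL, HBA1 and CRH in opposite corners.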

How the data were processed

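Dissociated retinas were profiled as 4 droplet libraries (10x Genomics), 1 per condition. The files deposited by the authors hold UMI counts, whole numbers per gene and barcode, neither normalized nor corrected. The submitters' processing notes name Cell Ranger 7.0.1 and GRCg7b, whereas the paper's methods give an older build. The files hold 30108 features, of which 16329 have no symbol. Each file summed to between 20614413 UMIs (saline) and 27033560 (NMDA). The authors' counts were summed over barcodes here. Ratios of CPM had 0.5 UMI added to each sum and exact conditional binomial 95% intervals. Shares have exact Clopper-Pearson intervals. Intervals and limits (3 counts for a count of 0) cover counting error only.

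Non-glial barcodes of all 4 libraries were clustered together (counts scaled to 10000 and logged, 2000 variable genes without the listed response genes, 15 principal components, 20 neighbours, Leiden resolution 0.8, with leidenalg 0.10.2 and igraph 0.11.9). A cluster was named when at least 3 markers were raised 2-fold, with at least 20 UMIs and in at least 5% of barcodes. It stayed unnamed when another class had at least 4 further raised markers or more markers among the leading 10 genes. This rule was chosen after the clusters had been seen. Doublets were neither called nor removed. For shares with a UMI, barcodes were thinned to 1000 UMIs and shallower ones left out (322 saline and 257 NMDA amacrine-like barcodes).

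By rule, the text could name 15 higher and 15 lower genes of the non-glial barcodes, ordered by whichever end of the interval lay closer to 0, 5 and 5 of each class, listed genes past 2-fold, up to 4 abundant members per list, and class markers. The 25 and 25 of the neuron clusters, and genes given as class comparisons, were added after the values were seen. The members and the 36 lists were chosen with earlier results of these data known. RefSeq (GRCg7b) had an entry for 788 of 809 symbols used. Alternatives were other filters, scalings, depth and glial limits, a mean over barcodes, an equal mix of classes, resolution 0.4 and clustering without the 1619 genes past 2-fold. TMM factors came from edgeR 4.0.16 (R 4.3.3), and all other steps were run in Python 3.11.15 with scipy 1.17.1.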

Additional observations from a re-analysis of the deposited data

Results flagged for a closer look

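In the neuron clusters, 18 genes higher and 4 lower after NMDA passed 2-fold in the opposite direction in the pair with clodronate. Of these, 5 are described here. With 1 library per condition, none of these differences was tested. TH, for dopamine synthesis, had a log2 ratio of -2.77 without and 3.90 with clodronate, and rested on 2 barcodes in saline and 1 in clodronate+NMDA. HBA1, a hemoglobin gene, had 6.93 and -2.22, with 15 barcodes holding 91.0% of its NMDA UMIs. CRH had 1.76 and -3.49, with 4 barcodes holding 83.8% of its NMDA UMIs. OASL and B2M, both stimulated by interferon, had 4.51 and -1.68 and 1.10 and -1.28, and for both the saline library was the lowest and clodronate+saline the highest of the 4. For OASL, 101 of 8212 NMDA barcodes had a UMI, and 4 barcodes held 41.8% of its NMDA UMIs.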

How the results depend on the processing

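In the summed non-glial barcodes 669 genes were higher and 351 lower. With no filter on UMIs these were 3345 and 2635, with at least 200 UMIs 387 and 153, and with a looser glial gate 430 higher. TMM factors, a median of ratios, leaving out hemoglobin, mitochondrial and ribosomal genes, a mean over barcodes, an equal mix of classes, at most 2500 genes per barcode and only neuron clusters left both counts within 1.5 times. The genes called were not all the same. Of the 669 higher genes 397 stayed so in neuron clusters, 446 with an equal mix and 469 with at most 2500 genes. Of the 351 lower genes these were 276, 221 and 234. With TMM factors 669 and 349 stayed. At most 2500 genes turned the ratios of TAC1 (-0.84) and CCK (-0.054) in the summed barcodes and moved those of 41 further named genes by more than counting error. It left 55 the same. A mean over barcodes moved 56 named genes and left 43 the same, and an equal mix of classes moved 49 and left 50. Only neuron clusters moved 47 and left 51, and the looser gate moved 45 and left 49. TMM and the median of ratios moved 0 and left 99. At resolution 0.4 no cluster was named for Müller glia and the unnamed NMDA share was 7.59% in place of 5.81%, and clustering without genes past 2-fold gave no cone or rod share, since these barcodes fell in an unnamed cluster. No paired analysis was possible because each condition had 1 library, for which leaving out a replicate leaves nothing. Depth limits genes under 50 UMIs, and free RNA, which was not measured, can limit shares of barcodes with 1 UMI.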
